A study of Mus musculus with 9 samples.

Results

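GABA-A receptors are chloride channels of 5 subunits that open when GABA, the main inhibitory transmitter of the brain, binds to them. The genes described here are 7 that encode such subunits, 4 of the alpha class (Gabra2, Gabra3, Gabra4 and Gabra5), 2 of the beta class (Gabrb1 and Gabrb2) and the delta subunit (Gabrd). They were taken by name from a table of 33958 annotated genes, and each was followed through its annotated transcript with the highest mean count over all samples. All 7 passed the filter on low counts, which kept 56416 of 95533 transcripts.

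Alpha and beta subunits together form the binding site for GABA. Receptors with a gamma subunit gather at synapses and carry fast inhibition. The delta subunit, often in company with the product of Gabra4, and many receptors with the product of Gabra5 lie outside synapses and respond to low ambient GABA. Cortical pyramidal cells carry receptors of several alpha types side by side.

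RNA was collected by laser capture from the piriform cortex, a main cortical target of the olfactory bulb, of wild type C57BL/6 mice that the labels give as 8 weeks old. No transgene, deletion or treatment is named for any sample. The tissue was cut as layers, labelled A, B and C, with 3 samples of each. Neither the labels nor the study's text states which letter is which anatomical layer. The fold differences between named layers in the study's supplement were not set against the letters here. Each sample is a strip of tissue that holds neurons, neuropil, glia and vessels, and nothing in the labels says that the replicates came from different animals, so the p-values measure the spread between these samples.

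Total counts ran from 23104306 to 76471683 per sample. Transcripts of the mitochondrial genome took 56.4% to 72.6% of the counts in layer A, 13.1% to 30.1% for layer B and 21.2% to 59.0% for layer C. Layer B replicate 3 stood apart from the other layer B samples, with r = 0.896 and 0.888 against them and r = 0.981 between the other 2 (log2 levels across transcripts, which are not independent). Its level of the interneuron gene Sst was 72.8 CPM (counts scaled to a common library size) against 4.35 and 4.27 in replicates 1 and 2, and 49.0 to 71.7 in layer C.

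The neighbouring genes Gabra4 and Gabrb1 on chromosome 5 and the gene with the largest fold difference among the 7, Gabra5 on chromosome 7, are shown first by the sequence around their starts. Each window runs from 250 bases before to 50 bases after a start (RefSeq, GRCm38.p6) and is written 5′ to 3′ on the strand of the gene. Capitals mark matches on either strand to 5 promoter motifs, the TATA box (TATAAA), the CCAAT box (CCAAT), the GC box (GGGCGG), the cyclic AMP response element (TGACGTCA) and the E-box (CACGTG). Gabra4 lies on the minus strand and its window is chr5:71658259-71658558. Gabrb1 lies on the plus strand and has a first start 387 bases away, in chr5:71657671-71657970, and a second in chr5:71699682-71699981. The transcript counted for Gabrb1 begins at the second, 41624 bases from the start of Gabra4. Gabra5 lies on the minus strand, with the window chr7:57510010-57510309.
Gabra4: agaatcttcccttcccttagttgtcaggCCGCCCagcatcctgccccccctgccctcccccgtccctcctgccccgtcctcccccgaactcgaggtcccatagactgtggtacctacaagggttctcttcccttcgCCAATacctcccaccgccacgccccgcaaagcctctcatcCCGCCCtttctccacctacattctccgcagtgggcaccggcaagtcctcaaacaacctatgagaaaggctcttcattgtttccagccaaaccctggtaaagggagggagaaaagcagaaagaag
Gabrb1, first start: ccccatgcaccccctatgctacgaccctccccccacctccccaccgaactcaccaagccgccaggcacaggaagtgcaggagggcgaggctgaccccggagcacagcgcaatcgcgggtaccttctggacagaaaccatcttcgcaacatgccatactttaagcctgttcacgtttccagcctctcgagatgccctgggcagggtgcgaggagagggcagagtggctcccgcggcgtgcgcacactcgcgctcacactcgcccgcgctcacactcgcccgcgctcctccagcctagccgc
Gabrb1, second start: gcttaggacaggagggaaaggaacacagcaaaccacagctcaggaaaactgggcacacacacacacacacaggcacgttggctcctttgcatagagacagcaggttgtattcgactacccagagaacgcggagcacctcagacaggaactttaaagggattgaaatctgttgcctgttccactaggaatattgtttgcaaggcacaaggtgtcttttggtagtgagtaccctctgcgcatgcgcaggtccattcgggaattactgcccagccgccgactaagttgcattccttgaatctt
Gabra5: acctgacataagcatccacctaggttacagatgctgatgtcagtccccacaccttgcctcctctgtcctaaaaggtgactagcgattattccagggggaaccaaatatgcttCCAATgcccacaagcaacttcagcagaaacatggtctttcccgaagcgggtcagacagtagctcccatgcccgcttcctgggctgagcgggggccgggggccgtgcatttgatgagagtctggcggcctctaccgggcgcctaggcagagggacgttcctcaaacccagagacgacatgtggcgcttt

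The Gabra4 window held 1 CCAAT box and 2 GC boxes, and the Gabra5 window held 1 CCAAT box. Neither Gabrb1 window held any of the 5 motifs. Over all 32851 promoter windows of the same length, 37.4% held a CCAAT box, 35.7% a GC box, 13.6% a TATA box, 7.15% an E-box and 1.79% the cyclic AMP response element. These matches are a description of letters and carry no information on binding.

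**Figure D1:**
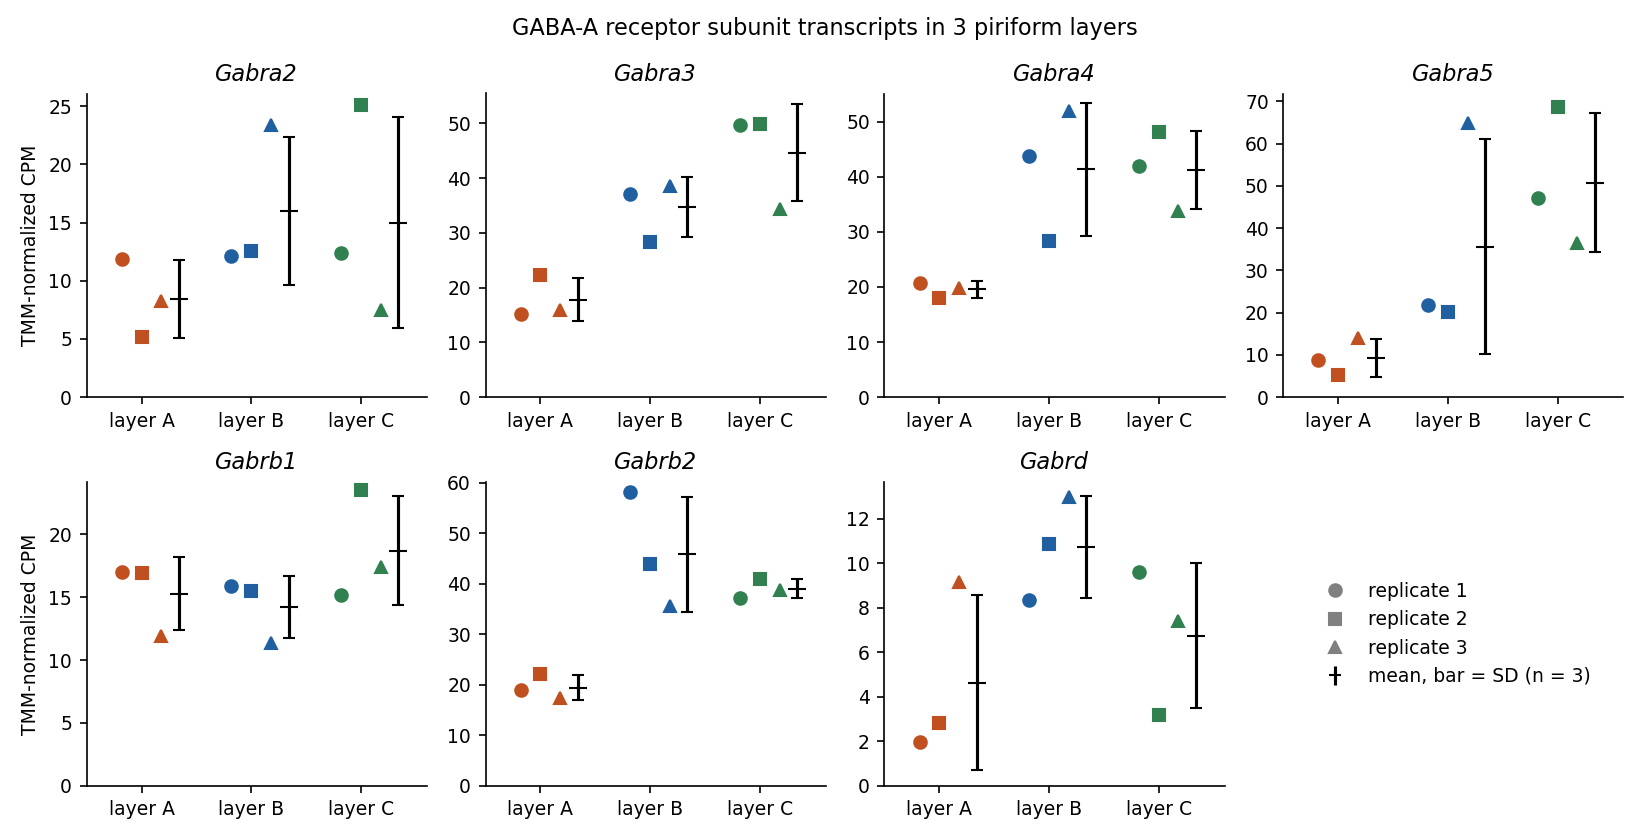
TMM-normalized CPM of the counted transcript of each subunit gene (y axis, from 0) in the 3 samples of each layer (x axis). Symbols are samples, and the bars beside them give the mean and SD. Layer A samples of Gabra3, Gabra4, Gabra5 and Gabrb2 lie below all samples of layers B and C on this scale, while those of Gabrb1 lie among them.

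On the scale of TMM-normalized CPM, which sets libraries against each other by the bulk of their transcripts, Gabra3, Gabra4, Gabra5 and Gabrb2 were lower in layer A than layer B and lower in layer A than layer C, with fold differences of 1.95 to 5.42. This direction did not hold for every scaling: with libraries set to the level of 8 general neuron markers, Gabra3, Gabra4 and Gabrb2 turned or moved to between -0.22 and 0.26 on the log2 scale, and of these 4 genes Gabra5 against layer C alone passed the test. Gabrb1 differed little between layers on the TMM scale and had values of 0.80 to 1.26 (log2, layer A over the other) on the neuron scale, where it passed in 1 of 4 tests. The median of all transcripts on the neuron scale was itself 1.004 to 1.14, so Gabrb1 lay near the typical transcript there. No member passed the test between layers B and C.

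Between layers A and B, 4 of the 7 genes passed an adjusted p of 0.05 in the edgeR quasi-likelihood test, all lower in layer A. Of all 56416 transcripts tested, 16.5% passed in either direction, 5.83% as lower in layer A and 10.7% as higher. For 5 of the 7 genes every layer A sample lay below every layer B sample, against 15.1% of all transcripts. The median log2 difference of the 7 genes was -1.08, and that of all transcripts -0.12. Between layers A and C, again 4 of the 7 passed, all lower in layer A, where 11.3% of all transcripts passed, 4.35% as lower and 6.98% as higher. All layer A samples lay below all layer C samples for 4 of the 7, against 14.5% of all transcripts. The median was -1.004 for the 7 genes and -0.01 for all transcripts. These comparisons share the 3 layer A samples and are not independent of each other.

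Between layers B and C, 0 of the 7 genes passed, and the share of all transcripts that passed was 0% in edgeR. At an unadjusted p under 0.05 there were 2316 transcripts, and DESeq2 called 124, none of them a member. When the 3 layers were compared at once, 4 of the 7 genes passed, as did 14.3% of all transcripts. The widest intervals between layers B and C were those of Gabrd (0.66, 95% interval -0.44 to 1.75) and Gabra5, and Gabra3 (-0.36), Gabrb1 (-0.39) and Gabrb2 (0.23) lay closer to 0. The count for layer A against layer B was 2 without layer B replicate 3, 1 without layer A replicate 1 or layer B replicate 1, and 2 without layer A replicate 2 or layer C replicate 1. The count against layer C was 1 without layer A replicate 1 or layer C replicate 1, and 2 without layer A replicate 2, layer A replicate 3 or layer C replicate 2. For any difference it was 0 without layer A replicate 1, 1 without layer A replicate 2 or layer C replicate 1, and 2 without layer A replicate 3 or layer B replicate 1. The share of all transcripts that passed in these fits with fewer samples is not given here, so the counts cannot be set against it.

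Gabra5 encodes the alpha subunit best known from the hippocampus, where it carries much of the tonic current. Its transcript (ENSMUST00000068456, minus strand, chr7:57407672-57510009, 10 exons, protein-coding) gave 8.71, 5.14 and 14.0 CPM in layer A, 21.8, 20.0 and 64.9 for layer B and 47.1, 68.7 and 36.5 for layer C. Layer A was low in every sample and did not overlap the other layers. Layer B was divided, with replicate 3 among the layer C samples and the other 2 near each other below them.

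The log2 difference of Gabra5 was -1.93 ± 0.48 (SE) between layers A and B (edgeR adjusted p = 0.0117) and -2.44 ± 0.49 between layers A and C (adjusted p = 0.00664). Without layer B replicate 3 the difference from layer B was -1.11, with an adjusted p of 0.0459. It missed the threshold against layer B without layer A replicate 1 (adjusted p = 0.0564) or layer A replicate 2 (0.0622), while the difference from layer C passed in each of 9 fits that left out 1 sample. Between layers B and C the difference was -0.51, with a 95% interval of -1.48 to 0.46, and -1.32 without layer B replicate 3. The annotated gene Gm9962 shares 148 exonic bases with this transcript, and reads there cannot be assigned to either gene, since the libraries kept no strand.

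Gabra3 encodes an alpha subunit found at synapses of cortical and brainstem neurons. The counted transcript (ENSMUST00000055966, minus strand, chrX:72432681-72656186, 10 exons) had 15.2, 22.3 and 16.0 CPM in layer A, 37.1, 28.4 and 38.7 for layer B and 49.6, 49.9 and 34.4 for layer C. Samples of layer A lay below all others, and those of layers B and C overlapped. Its log2 difference was -0.96 ± 0.30 from layer B (adjusted p = 0.0360) and -1.32 ± 0.30 from layer C (adjusted p = 0.0115). Among 9 fits without 1 sample it passed in 3 against layer B, with adjusted p from 0.0424 to 0.142, and in 7 against layer C, from 0.00430 to 0.0760. The calls against layer B were lost without replicate 1 or 3 of any layer, and those against layer C without layer A replicate 1 or layer C replicate 1. A further protein-coding transcript of the gene had 39.6% of its mean count, and transcripts of 1 gene share reads.

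Gabra4 encodes an alpha subunit that often joins the delta subunit outside synapses. Its transcript (ENSMUST00000031121, minus strand, chr5:71569749-71658308, 9 exons) gave 20.8, 17.9 and 19.9 CPM in layer A. Layer B had 43.7, 28.3 and 52.0, and layer C had 41.9, 48.0 and 33.8. Layer A was the tightest group and lay below the rest, while layers B and C had means of 41.3 ± 12.01 and 41.2 ± 7.13 (SD, n = 3). The log2 difference was -1.08 ± 0.30 against each of layers B (adjusted p = 0.0219) and C (adjusted p = 0.0306), and 0.00 between B and C, with a 95% interval of -0.62 to 0.63. Against layer B it missed the threshold without any 1 of the layer A samples, layer B replicates 1 or 3 or layer C replicate 1 (adjusted p up to 0.0916), and against layer C without any 1 of the layer A samples, layer B replicate 1 or layer C replicates 1 or 2 (up to 0.124). Exons of Gabrb1 transcripts that were not counted cover 46 bases of it.

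Gabra2 encodes an alpha subunit known from axon initial segments of pyramidal cells. The counted transcript (ENSMUST00000000572, minus strand, chr5:70961061-71094640, 9 exons) is the single one of this gene in the files and is annotated as subject to nonsense-mediated decay, so its counts include reads of exons shared with coding forms. It had 11.8, 5.14 and 8.29 CPM in layer A, 12.1, 12.5 and 23.4 for layer B and 12.3, 25.1 and 7.52 for layer C. Layer A lay just below layer B and overlapped layer C, within which the samples differed more than 3-fold. The log2 differences were -0.93 (95% interval -1.89 to 0.03, adjusted p = 0.189) from layer B and -0.83 (interval -1.79 to 0.14, adjusted p = 0.288) from layer C, and neither passed. Without layer B replicate 3 the difference from layer B was -0.50, and without layer C replicate 2 that from layer C was -0.24.

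Gabrb2 encodes the beta subunit of the most common synaptic receptors. Its transcript (ENSMUST00000007797, plus strand, chr11:42419757-42629028, 10 exons) had 18.9, 22.1 and 17.3 CPM in layer A, 58.1, 43.9 and 35.5 for layer B and 37.2, 41.0 and 38.8 for layer C. Layer C samples lay close together, and no layer A sample reached those of the other layers. The log2 difference was -1.24 ± 0.28 from layer B (adjusted p = 0.00779) and -1.004 ± 0.28 from layer C (adjusted p = 0.0325). The call against layer B was lost without layer B replicate 1 (adjusted p = 0.0733), and the call against layer C without any 1 of the 6 samples compared (adjusted p from 0.0697 to 0.113). The next of 4 counted transcripts, a processed transcript, had 20.5% of its mean count.

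Gabrb1 encodes another beta subunit, expressed by neurons and also by astrocytes. Its transcript (ENSMUST00000031122, plus strand, chr5:71699932-72149037, 9 exons, 13737 bases) gave 17.0, 16.9 and 11.95 CPM in layer A. The values were 15.9, 15.5 and 11.4 in layer B and 15.2, 23.6 and 17.4 in layer C. The 3 layers overlapped, and layer C replicate 2 was the highest sample. The log2 difference was 0.10 (95% interval -0.56 to 0.76, adjusted p = 0.873) from layer B and -0.29 (interval -0.95 to 0.37, adjusted p = 0.636) from layer C. Among the 7 genes its level varied least over the 9 samples, by 0.29 (root mean square of log2 deviations from its own mean), against 1.21 for Gabra5 and 0.55 for Gabra4.

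Gabrd encodes the delta subunit of receptors outside synapses. Its transcript gave 1.94, 2.80 and 9.14 CPM in layer A, 8.37, 10.9 and 12.97 for layer B and 9.63, 3.18 and 7.43 for layer C. The counted transcript (ENSMUST00000150423, minus strand, chr4:155384980-155398047, 7 exons) is annotated as processed, and the protein-coding one had 99.8% of its mean count. Layer A replicate 3 lay above the other layer A samples and within the range of layer B, and layer C replicate 2 lay below the others of its layer. The log2 difference was -1.18 from layer B (95% interval -2.29 to -0.06, adjusted p = 0.148) and -0.52 from layer C (interval -1.63 to 0.59, adjusted p = 0.610). Without layer A replicate 3 the difference from layer B was -2.15, with an adjusted p of 0.0136, and that from layer C was -1.49, which did not pass (adjusted p = 0.0799). The difference from layer C was -0.17 without layer A replicate 1, -0.26 without layer A replicate 2, -0.20 without layer C replicate 1 and -0.84 without layer C replicate 2. As few as 23 counts lay behind a layer A value of this gene.

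**Figure D2:**
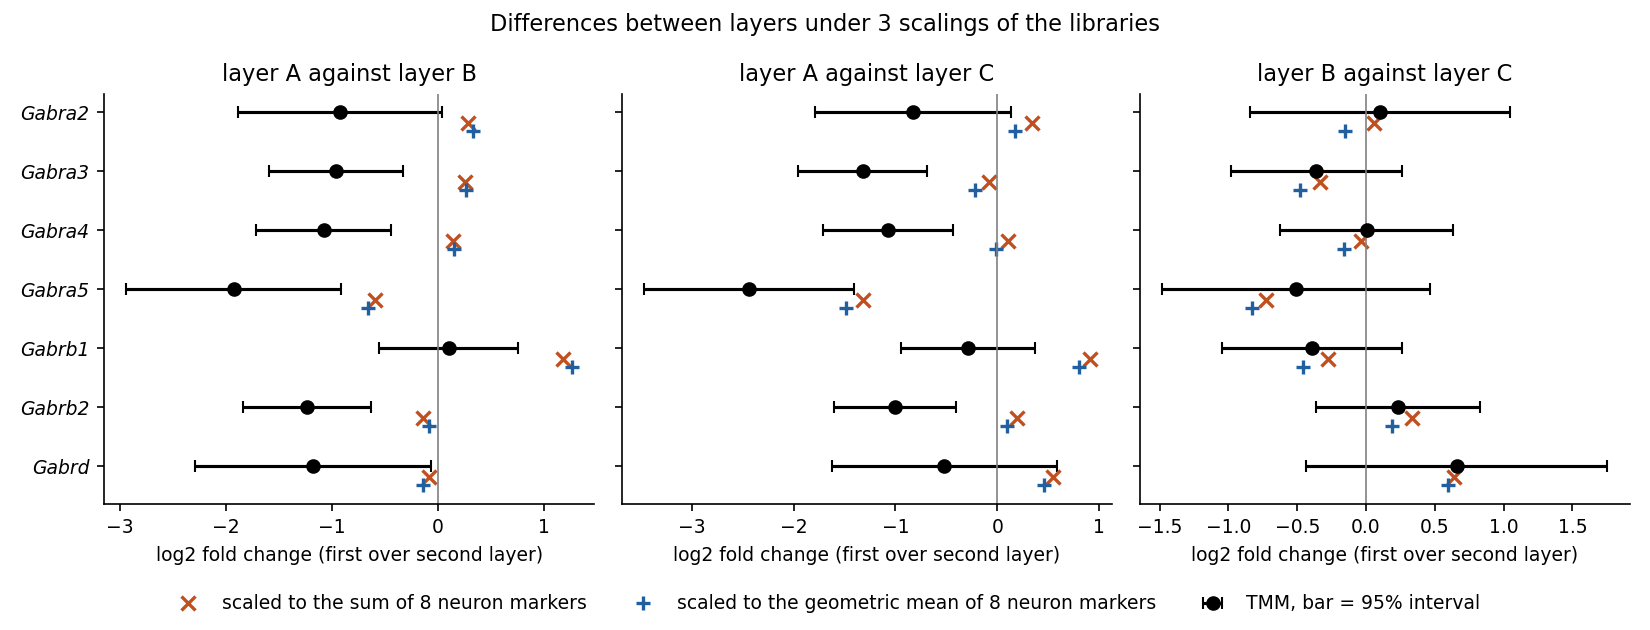
Log2 fold change of each subunit gene (first over second layer, x axis) for the 3 pairs of layers. Circles with 95% intervals use TMM normalization, and crosses and plus signs use libraries scaled to the sum or the geometric mean of 8 general neuron markers. On the TMM scale Gabra5 is lowest in layer A against both layers, and in both comparisons of layer A the values on the neuron scales lie further to the right, so that Gabra2, Gabra3 and Gabra4 turn against layer B and Gabrb1 lies highest. Between layers B and C most values on the neuron scales lie slightly to the left of the circles. In the comparisons of layer A the median of all transcripts on the neuron scales is 1.004 to 1.14.

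Markers of other cells moved with these differences. Astrocyte markers were higher in layer A for 10 of 10 genes against both layers, and their summed level was 4842 to 10471 CPM in layer A, 771 to 1194 for layer B and 1291 to 1687 for layer C. Summed endothelial markers were 108 to 134 CPM in layer A, 7.47 to 19.8 for layer B and 15.7 to 24.6 for layer C, and passed as higher in layer A for 6 of 6 genes against layer B and 5 of 6 against layer C. Summed meningeal markers were 69.7 to 162 CPM in layer A, 1.15 to 6.42 for layer B and 3.58 to 4.78 for layer C, with 6 of 6 genes higher in layer A against both. Summed microglial markers were 82.5 to 101 CPM in layer A, 12.5 to 27.5 for layer B and 30.7 to 41.1 for layer C, with 4 of 6 genes higher in layer A against each. For oligodendrocytes 1 of 6 markers passed, higher in layer A than layer B, and 0 of 6 against layer C, with summed levels of 158 to 260, 42.0 to 210 and 126 to 469 CPM in layers A, B and C. Without layer B replicate 3 the count against layer B was 5 of 6, and the median log2 difference of the 6 markers was 2.37 in place of 1.19. No marker of these 5 lists passed as lower in layer A. Of all transcripts, 10.7% passed as higher in layer A than layer B and 6.98% as higher than layer C.

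Of 8 general neuron markers, 6 were lower in layer A than layer B and 5 lower than layer C. The presynaptic gene Snap25 had 408 to 852 CPM in layer A, 1349 to 4296 for layer B and 1466 to 2383 for layer C. The dendritic gene Map2 was at 401 to 808 CPM in layer A and 266 to 447 in layer B and did not pass (log2 difference 0.66, adjusted p = 0.209). Of 8 glutamatergic markers, 3 were lower and 1 higher in layer A against layer B, and 5 lower and 1 higher against layer C. Neurod6, a transcription factor of pyramidal cells, was at 0.17, 0.07 and 1.29 CPM in layer A, against 1.71 to 4.32 in layer B (adjusted p = 0.0579, which did not pass) and 4.08 to 14.3 in layer C (adjusted p = 0.00844). The higher one was Camk2a, a kinase of excitatory synapses and the most abundant of the 8, with 2123 to 4125 CPM in layer A, 739 to 881 for layer B and 750 to 1323 for layer C (log2 difference 1.87 and 1.41, adjusted p = 0.00160 and 0.0135). Of 10 GABAergic markers, 2 were higher and 1 lower in layer A than layer B, and 1 higher and 2 lower against layer C. Without layer B replicate 3 these counts were 5 and 1 against layer B and 1 and 4 against layer C, and the median against layer B was 0.86 in place of 0.11. With all 9 samples, 10.7% of all transcripts passed as higher and 5.83% as lower in layer A than layer B. Against layer C the shares were 6.98% and 4.35%. Counts of 1 of the 10 GABAergic markers lie near these shares. In such bulk samples fewer cells of a type and less RNA per cell cannot be told apart.

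Scaling the libraries to the 8 neuron markers, an alternative chosen after the data were seen, moved the median of all transcripts by 1.13 (sum of the markers) and 1.15 (geometric mean) on the log2 scale against layer B and by 1.15 and 1.07 against layer C. That median then lay at 1.004 and 1.03 against layer B and at 1.14 and 1.07 against layer C. In the same order, the log2 difference of Gabra5 on this scale was -0.59 and -0.66 from layer B, which did not pass, and -1.32 and -1.49 from layer C, which passed (adjusted p = 0.0201 and 0.0143). Gabrb1 was at 1.18 (adjusted p = 0.0654) and 1.26 (adjusted p = 0.0348) against layer B and at 0.91 and 0.80 against layer C, where neither passed. Gabra2, Gabra3, Gabra4, Gabrb2 and Gabrd lay between -0.22 and 0.55 in both comparisons under either version, and none passed. Since 6 of the 8 markers were themselves lower in layer A than layer B, this scale reads each gene against these 8 markers and the TMM scale reads it against the whole sample. Whether the 8 markers stand for neuronal RNA as a whole was not tested. In layer B, Snap25 alone had a mean of 2467 of the 3999 CPM summed over the 8.

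Levels can be set against each other between genes only per length, and here per kilobase of the counted transcript, which holds only as far as that transcript stands for its gene. In layer A, Gabrb2, Gabra3 and Gabra4 had 4.87, 4.87 and 4.76 CPM per kilobase, followed by Gabra2 with 3.75, Gabra5 with 3.48, Gabrd with 1.71 and Gabrb1 with 1.11. The ranges of every pair of neighbours in this order overlapped, although Gabra5 lay above Gabrd within each sample. In layer B the order was Gabra5 with 13.3, Gabrb2 with 11.5, Gabra4 with 10.1, Gabra3 with 9.49, Gabra2 with 7.12, Gabrd with 3.96 and Gabrb1 with 1.04. Of these neighbours only Gabra2 and Gabrd, and Gabrd and Gabrb1, did not overlap. The first place of Gabra5 in layer B rested on replicate 3 alone, where it had 24.3. In replicates 1 and 2 of that layer it lay below both Gabrb2 and Gabra3. In layer C, Gabra5 led with 19.0 ± 6.13 (SD, n = 3) and did not overlap Gabra3 with 12.2 ± 2.42. Gabra4 with 10.04, Gabrb2 with 9.77, Gabra2 with 6.68, Gabrd with 2.49 and Gabrb1 with 1.36 followed, and the range of each overlapped those of its neighbours. Within each layer C sample Gabra3 lay above Gabra4 and Gabra2 above Gabrd.

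**Figure D3:**
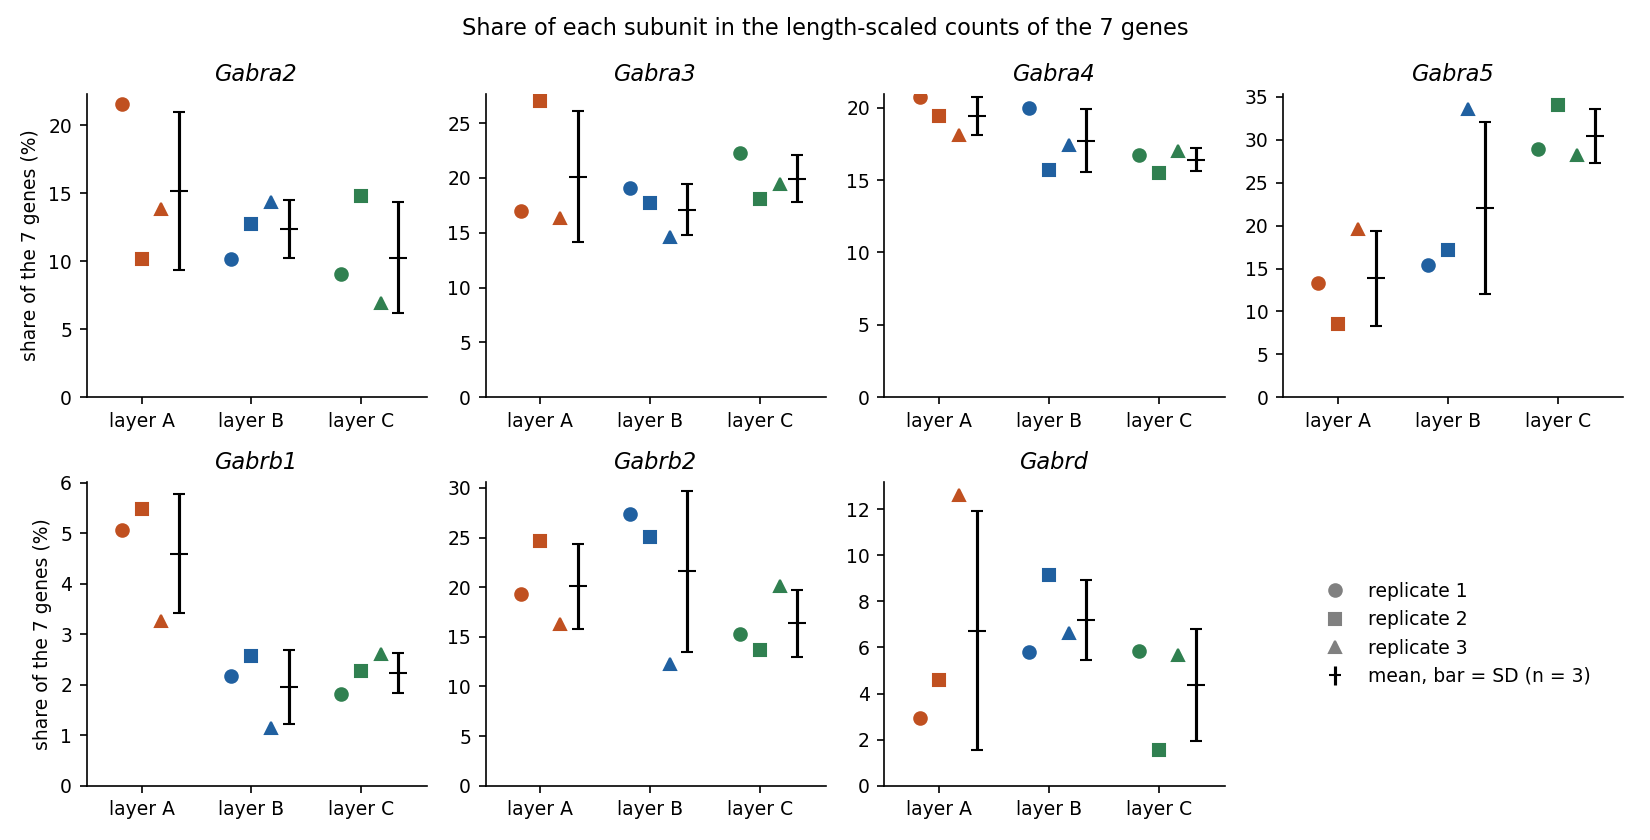
Share of each gene in the length-scaled counts of the 7 subunit genes within a sample (y axis, %, from 0) for the samples of each layer (x axis). Symbols are samples, and the bars give the mean and SD. Gabra5 takes 8.55% to 19.6% in layer A and 28.3% to 34.1% in layer C, and Gabrb1 takes its largest share in layer A.

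A share within a sample needs no scaling between libraries. Of the length-scaled counts of the 7 genes, Gabra5 took 13.3%, 8.55% and 19.6% in the layer A samples, 15.4%, 17.1% and 33.5% in layer B and 29.0%, 34.1% and 28.3% in layer C. Layers A and C did not overlap, and layer B ran from the range of layer A to that of layer C through its replicate 3. The difference between layers A and C was -16.6 percentage points, with a two-sided exact permutation p of 0.1, the smallest that 3 samples against 3 allow, and 0.525 after adjustment over 21 comparisons of shares. Gabrb1 took 5.06%, 5.49% and 3.25% in layer A, 2.18%, 2.57% and 1.14% for layer B and 1.81%, 2.28% and 2.62% for layer C. Its layer A samples lay above all others, with the same exact p of 0.1 in both comparisons.

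Gabra4 took 18.1% to 20.7% in layer A and 15.5% to 17.0% in layer C, which did not overlap, and 15.7% to 20.0% in layer B. This separation was lost without length scaling, where the shares of Gabra4 were 19.4% to 22.0% in layer A and 18.5% to 19.7% in layer C. Gabra2, Gabra3, Gabrb2 and Gabrd overlapped between every pair of layers. Gabra3 had nearly the same mean share in layers A and C (20.1% ± 6.01 and 19.9% ± 2.14, SD, n = 3). Among the 4 alpha genes alone, Gabra5 took 20.1% ± 8.05 in layer A, 30.9% ± 9.67 for layer B and 39.5% ± 1.86 for layer C. Gabra4 took 28.3% ± 1.57, 25.9% ± 4.65 and 21.4% ± 2.49 in the same order.

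**Figure D4:**
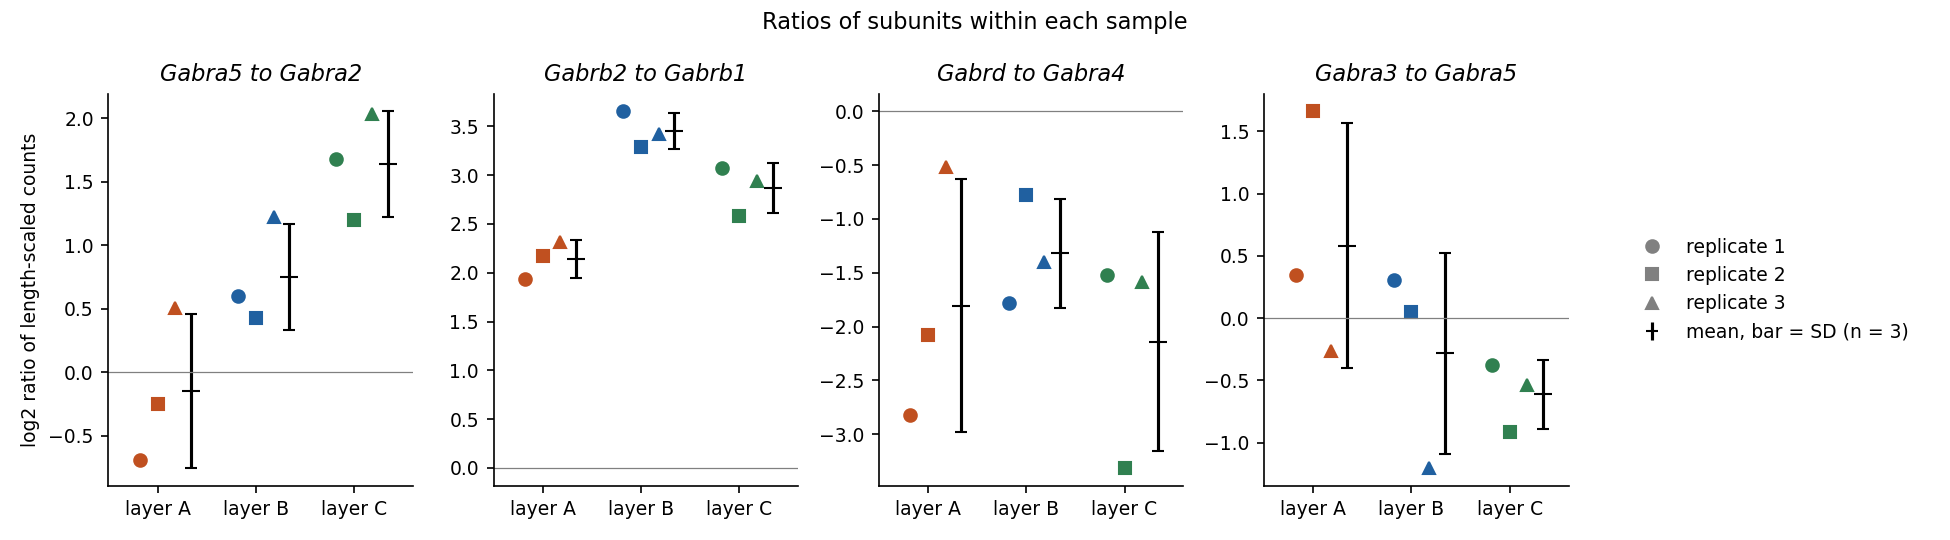
Log2 ratio of length-scaled counts of a pair of subunit genes within each sample (y axis) for the samples of each layer (x axis), with the mean and SD beside them. The ratio of Gabrb2 to Gabrb1 separates the 3 layers without overlap, with layer B highest and layer A lowest.

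The ratio of Gabrb2 to Gabrb1, beta subunits that can take the same place in the receptor, separated the layers. On the log2 scale of length-scaled counts it was 1.93, 2.17 and 2.32 in layer A, 3.66, 3.29 and 3.42 for layer B and 3.08, 2.58 and 2.94 for layer C. No 2 layers overlapped, and layer C lay between the other two. Each of the 3 differences (-1.31 for layer A less B, -0.73 for layer A less C and 0.59 for layer B less C) had an exact permutation p of 0.1, the smallest this design allows, and 0.24 after adjustment over 12 comparisons of ratios.

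The ratio of Gabra5 to Gabra2 was -0.69, -0.25 and 0.51 in layer A and 1.68, 1.20 and 2.03 in layer C, again without overlap (difference -1.78, exact permutation p = 0.1). Layer B lay between, at 0.60, 0.43 and 1.22, and overlapped both. For Gabra3 to Gabra5 the ratio ran from -0.27 to 1.66 in layer A and from -0.92 to -0.38 in layer C, without overlap (exact permutation p = 0.1). In layer B it ran from -1.20 to 0.31. The ratio of Gabrd to Gabra4, subunits that are often partners, spread widely within layers, from -2.82 to -0.52 in layer A, -1.78 to -0.78 for layer B and -3.31 to -1.52 for layer C, and all pairs of layers overlapped.

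The genes of most similar profile were sought among 11721 genes with a mean of at least 1 CPM, by the root mean square difference of log2 CPM, each gene centred on its own mean over the 9 samples. Gabra3 was nearest to Herc3 (0.12) and Prkacb (0.15), Gabra4 to Clmp (0.12) and Vmp1 (0.13), and Gabrb2 to Adam22 (0.11) and Csrnp3 (0.14). Gabra5 was nearest to Vsnl1 (0.23), a neuronal calcium sensor, and to Npy2r (0.26), a neuropeptide Y receptor. Gabrb1 was near to Nf1 (0.10), Gabra2 to Ankrd12 (0.19) and Fam120b (0.20), and Gabrd to Cabp1 (0.23) and Matk (0.26). Within the 7 genes the closest pair was Gabra3 and Gabra4, at 0.26, and the most distant was Gabra5 and Gabrb1, at 1.23.

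**Figure D5:**
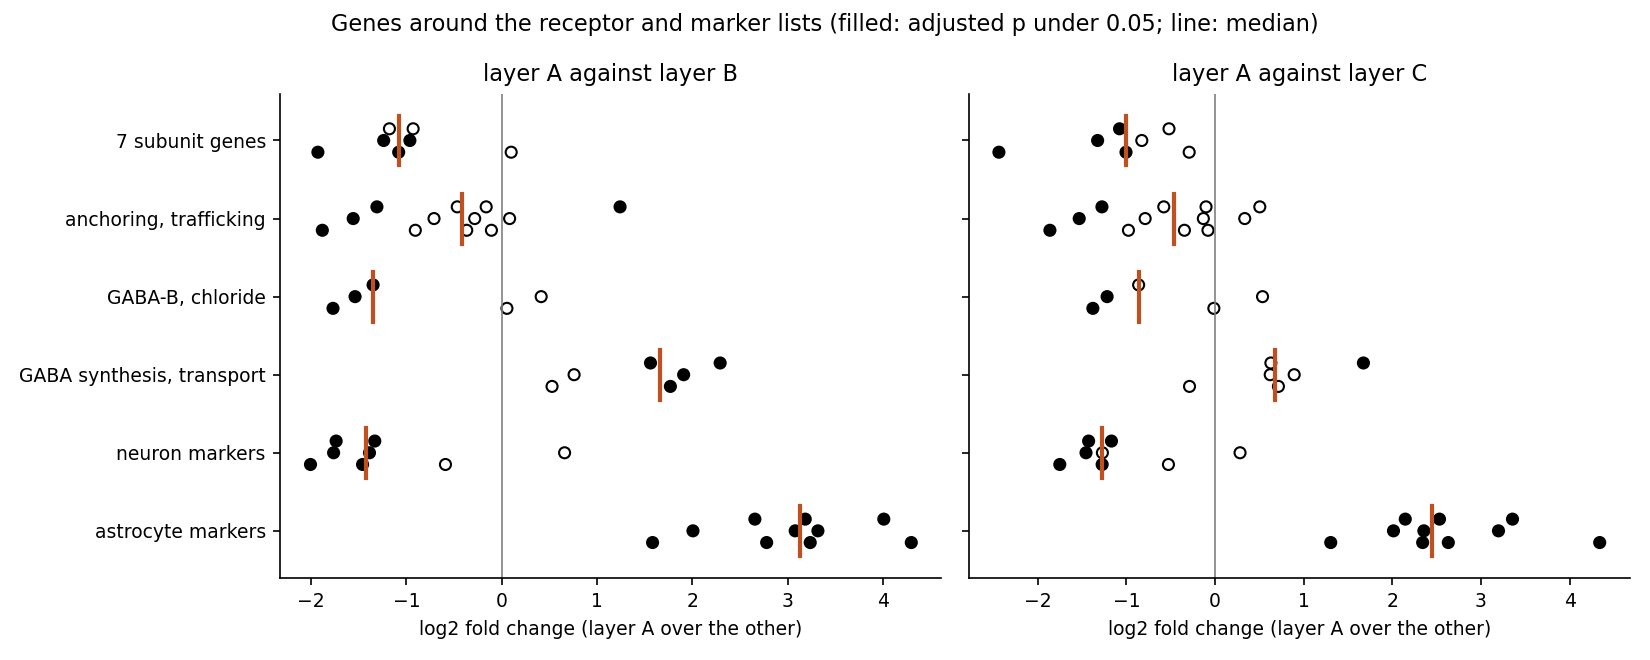
Log2 fold change of layer A over layer B (left) and over layer C (right) on the TMM scale (x axis) for the 7 subunit genes, for lists around the receptor and for neuron and astrocyte markers (y axis). Filled circles passed an adjusted p of 0.05, open circles did not, and the vertical strokes are medians. The median of the 7 subunit genes is -1.08 and -1.004 and the medians of the neuron markers are also below 0, although Gabrb1 against layer B and the neuron marker Map2 in both panels lie above 0, while all astrocyte markers lie above 0. Scaling to the neuron markers turns the medians of the 7 genes to between 0.10 and 0.19. The median of all transcripts on those scales is 1.004 to 1.14, above those of the 7 genes.

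Gabrg1, a gamma subunit known from glia as well as neurons and not one of the 7 genes, is named here after its values were seen. It was highest in layer A and had 25.9, 26.3 and 13.1 CPM in layer A, 4.67, 3.39 and 11.04 for layer B and 5.81, 6.75 and 7.90 for layer C. Layer A lay above all other samples, and layer B replicate 3 was the highest outside it. Its log2 difference was 1.77 ± 0.44 from layer B (adjusted p = 0.0115), 2.48 without layer B replicate 3, and 1.67 ± 0.44 from layer C (adjusted p = 0.0229). Under the neuron scales it was 2.83 to 3.21. Gabrg1 lies in the same cluster of chromosome 5 as Gabra2, Gabra4 and Gabrb1.

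Gabrg3 and the theta subunit gene Gabrq were tested and did not pass in any comparison. Gabrg3 had 16.4, 6.87 and 9.09 CPM in layer A, 5.61, 5.35 and 20.06 for layer B and 14.9, 24.3 and 19.9 for layer C, so that layer B replicate 3 lay with layer C and the other 2 below every sample of layers A and C. Gabra6, the alpha subunit of cerebellar granule cells, Gabre, Gabrp and the rho genes Gabrr1, Gabrr2 and Gabrr3 did not pass the filter on low counts. Gabrp had 0 counts in every sample, which allows up to 0.0255 to 0.254 CPM per sample (3 counts, counting error only).

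Of 12 genes for anchoring and trafficking of the receptor, 3 were lower in layer A than layer B and 3 lower than layer C, and 1 was higher than layer B. Of all transcripts, 5.83% and 4.35% passed as lower in layer A than layers B and C. As higher than layer B 10.7% passed, a share that 1 of 12 genes does not exceed. Slitrk3, an adhesion protein of inhibitory synapses, had 9.64, 10.4 and 10.2 CPM in layer A, 39.2, 36.5 and 35.7 for layer B and 36.0, 49.9 and 24.3 for layer C. Its layer A samples lay close together and far below the rest, with a log2 difference of -1.88 ± 0.31 from layer B (adjusted p = 0.00104) and -1.86 ± 0.31 from layer C (adjusted p = 0.00296). Shisa7, a protein associated with the receptor, had log2 differences of -1.56 and -1.53, and Lhfpl4, which links the receptor to neuroligin at the synapse, had -1.31 and -1.28. Without layer B replicate 3 the difference of Lhfpl4 from layer B was -0.71 and did not pass (adjusted p = 0.112). On the neuron scales Slitrk3, Shisa7 and Lhfpl4 kept a negative sign, from -0.81 to -0.01, and none passed.

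The higher gene was Iqsec3, a guanine nucleotide exchange factor that binds gephyrin, with 66.5, 44.1 and 37.0 CPM in layer A and 20.2, 24.8 and 17.4 in layer B (log2 difference 1.24, adjusted p = 0.0150). Gphn, which encodes gephyrin, the scaffold under the receptor, had log2 differences of -0.47 (adjusted p = 0.336) and -0.08 (adjusted p = 0.916). The median of the 12 genes was -0.42 against layer B and -0.46 against layer C, and it was 0.78 and 0.69 with libraries scaled to the sum of the neuron markers. On that scale the median of all transcripts was higher, at 1.004 and 1.14.

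Slc12a5, the potassium chloride exporter of mature neurons that sets the chloride gradient the receptor uses, had 50.3, 55.2 and 69.0 CPM in layer A, 157, 140 and 210 for layer B and 147, 123 and 135 for layer C. All layer A samples lay below all others (log2 difference -1.54, adjusted p = 0.00188, and -1.22, adjusted p = 0.0123). Slc12a2, the chloride importer, had log2 differences of 0.41 and 0.54 and did not pass. Of the subunits of the GABA-B receptor, which signals through G proteins, Gabbr2 was lower in layer A (-1.35, adjusted p = 0.00328, and -1.38, adjusted p = 0.00600), and Gabbr1 had 111 to 117 CPM in layer A, 87.1 to 148 for layer B and 109 to 125 for layer C. On the neuron scales Slc12a5 lay between -0.34 and -0.06 and Gabbr2 between -0.33 and -0.19, and neither passed. Of the 5 genes of this list tested, 3 were lower in layer A than layer B and 2 lower than layer C, and none was higher. Of all transcripts, 5.83% and 4.35% passed as lower on the TMM scale. Under either neuron scale 0 of the 5 genes were lower and 2 higher. On those scales the median of the 5 genes ran from -0.21 to 0.46 and that of all transcripts from 1.004 to 1.14. The share of all transcripts that passed there is not given here.

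Of 6 genes that make and clear GABA, 4 were higher in layer A than layer B and 1 higher than layer C, and none was lower, where 10.7% and 6.98% of all transcripts passed as higher. Without layer B replicate 3 the counts were 6 and 2. Gad1, which encodes a GABA-synthesizing enzyme, passed in neither comparison (log2 difference 0.53 and 0.63), and nor did the vesicular transporter gene Slc32a1 (0.76 and -0.29). Slc6a11, the GABA transporter of astrocytes, had 79.1, 67.0 and 56.2 CPM in layer A, 12, 15.7 and 13.7 for layer B and 23.8, 16.5 and 22.9 for layer C, and was higher in layer A against both (log2 difference 2.29 and 1.67, adjusted p = 0.000265 and 0.00343). Gad2, which encodes the other such enzyme, had 267, 137 and 120 CPM in layer A, 30.0, 26.0 and 83.7 for layer B and 78.2, 96.7 and 144 for layer C, and passed against layer B (log2 difference 1.91, adjusted p = 0.00941, and 2.69 without layer B replicate 3) but not against layer C (0.72, adjusted p = 0.353). Under both neuron scales 6 of 6 passed as higher against layer B and 5 of 6 against layer C. On those scales the median of all transcripts was itself 1.004 to 1.14, and that of the 6 genes lay above it in both comparisons. The share of all transcripts that passed there is not given here, so these counts cannot be set against it.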

How the data were processed

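Libraries were made from laser-captured tissue with an amplification kit, without strand information and without molecular identifiers, so reads are not independent molecules, and the floor of 3 counts covers counting error only, while intervals of log2 differences come from the fit and measure the spread between samples. Per the labels and the submitters' processing notes, the authors converted base calls with bcl2fastq 1.8.4, aligned reads to mm10 with Bowtie and counted them with HTSeq 0.5.3. The deposited values are read counts for each Ensembl transcript, as whole numbers that were not normalized. The treatment of reads shared by several transcripts is not given in the sources used here. The labels and the study's methods give different ages for the mice. Samples were grouped by the layer letter and replicate number in the labels. Of 95533 identifiers, 82779 were found in GENCODE vM21, which uses the mm10 assembly.

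The filter asked for 10 or more counts in 3 or more of the 9 samples. Counts that passed were normalized by TMM, and layers were compared with quasi-likelihood F-tests in edgeR 4.0.16 under R 4.3.3, with all 9 samples in 1 fit and Benjamini-Hochberg adjustment over 56416 transcripts at 0.05. Levels are TMM-normalized CPM, and errors of log2 differences are standard errors. DESeq2 1.42.0 was an alternative. Shares and ratios used counts divided by transcript length and two-sided exact permutation tests (scipy), whose smallest p is 0.1. The 7 genes and all lists were chosen with earlier results of these data known. Text names the 7 genes, the lists around them with up to 4 examples, and for each of the 7 genes up to 2 with the nearest profile. Some items are not reported here, and the list of other subunit genes is therefore not summarised. Alternatives were other normalizations, tools and filters, the replicate number as a block, fewer samples, sums by gene, and each sample left out in turn. Scaling to 8 neuron markers was added after the data were seen.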

Additional observations from a re-analysis of the deposited data

How the results depend on the processing

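The number of the 7 genes that passed was 4 against layer B, 4 against layer C, 0 between layers B and C and 4 for any difference. RLE normalization, TMM without mitochondrial transcripts, other filters on low counts, sums by gene, 1 transcript per gene and DESeq2 kept these counts, and library sizes without mitochondrial transcripts gave 3, 3, 0 and 4. An unadjusted p under 0.05 gave 5, 4, 0 and 4, where 29.0%, 24.5%, 4.11% and 25.3% of all transcripts passed. Only the 6 samples compared gave 2 against layer B. With 1 sample left out the counts ran from 1 to 4 against layer B, from 1 to 4 against layer C, and from 0 to 4 for any difference, where the value of 0 was that without layer A replicate 1. These fits have fewer samples. Scaling to the sum or the geometric mean of 8 neuron markers gave 0 and 1 against layer B, 1 and 1 against layer C and 1 and 1 for any difference. Shares of all transcripts that passed with 1 sample left out or on the neuron scales are not given here.

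On those 2 scales (sum, then geometric mean) the log2 difference from layer B turned to 0.28 and 0.33 for Gabra2, 0.26 and 0.26 for Gabra3 and 0.14 and 0.15 for Gabra4. That from layer C turned to 0.34 and 0.18 for Gabra2, 0.91 and 0.80 for Gabrb1, 0.19 and 0.10 for Gabrb2, 0.55 and 0.46 for Gabrd and, on the sum alone, 0.10 for Gabra4. The median of all transcripts lay at 1.004 and 1.03 against layer B and at 1.14 and 1.07 against layer C. Between layers B and C, Gabra4, at 0.00, turned to -0.035 and -0.16, and Gabra2 to -0.15 on the geometric mean.

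The same sign change of Gabra4 between layers B and C came without mitochondrial transcripts and TMM (-0.0078), without a filter (-0.0049), with sums by gene (-0.013) and with 1 transcript per gene (-0.021), all near 0. With 1 sample left out, the value of Gabra4 there ran from -0.24 to 0.19, that of Gabra2 from -0.32 to 0.69 and that of Gabrb2 from -0.0097 to 0.34. Why these small values change sign was not tested.

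Replicate numbers are shared by the layers. Deviations of same-numbered samples had correlations from -0.19 to 0.24 (mean 0.035), with 4 of 9 above 0.1. Those of differently numbered samples ran from -0.37 to 0.39 (mean -0.014), with 6 of 18 above 0.1. With 3 samples per layer, such weak correlations cannot decide whether the numbers pair the samples. With a replicate block the counts were 4, 4, 0 and 3, and the difference of Gabra4 between layers B and C was -0.023. Shares without length scaling moved for Gabra4 and Gabrb1 (to 8.73 percentage points for Gabrb1 in layer A less B) and kept their direction, but layers A and C then overlapped for Gabra4. Depth limits Gabrd most, with 23 to 367 counts per layer A sample.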
